A study of Mus musculus with 4 samples.

Results

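The neutrophil granule and calprotectin genes are 10 mouse genes, S100a8, S100a9, Mpo, Prtn3, Ctsg, Ltf, Lcn2, Camp, Ngp and Chil3, among 27670 gene labels on the array. They were chosen by gene name, with Chi3l3 counted as Chil3, and the brightest probe stood for a gene, which made a choice only for Ltf. The study asked how dietary nucleoprotein (NP) alters gene expression in liver and spleen. The tested mice ate CLEA basic purified diet with 1.2% S-nuclegen, which brought nucleic acids to 0.5% of the diet (NP). The others ate the purified diet alone, with 0.03% nucleic acids (low NP). All mice were male C57BL/6J, 13 weeks of age, and the feeding lasted 4 weeks. RNA was pooled per diet and tissue, and the number of mice in a pool is not given in the labels. Each tissue was run on 2 Agilent arrays that take a pair of dyes: the NP pool was labelled with Cy5 for array 1 and with Cy3 for array 2, and the low-NP pool with the other dye.

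Neutrophils carry ready-made antimicrobial proteins in granules that form in a fixed order in the bone marrow. Azurophil granules form first and hold myeloperoxidase and serine proteases, specific granules form later and hold lactoferrin, lipocalin 2 and cathelicidin, and calprotectin, the dimer of S100a8 and S100a9, fills the cytosol. In a liver or a spleen the transcripts can come from resident, passing or newly formed granulocytes, and some of the genes have other sources: hepatocytes make lipocalin 2 in the acute phase response. In bulk RNA, fewer cells of a type and less RNA per cell cannot be told apart.

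Calprotectin and lipocalin 2 carry the liver result below, so the probes that read S100a8 and Lcn2 are shown first. The array files place these probes, on mm7, at chr3:90800058-90800117 on the plus strand (S100a8) and chr2:32392828-32393072 on the minus strand (Lcn2). The Lcn2 interval is longer than the probe.
S100a8 probe: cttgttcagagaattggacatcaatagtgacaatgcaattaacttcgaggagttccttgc
Lcn2 probe: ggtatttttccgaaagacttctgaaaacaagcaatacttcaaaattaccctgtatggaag
The members' probes are 60 bases long, and their longest run in common with the probe of another listed gene was between 8 and 11 bases. Chil3 has a close relative, Chil4, with a probe of its own on the array. Whether the Chil3 probe also binds Chil4 transcripts was not tested. By the files' positions, S100a8, S100a9 and Chil3 lie on chromosome 3 and Ngp, Camp and Ltf on chromosome 9, with Lcn2 on 2, Prtn3 on 10, Mpo on 11 and Ctsg on 14.

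The promoters of S100a8, S100a9, Lcn2 and Ngp are shown because these genes had unlike ratios in liver. The letters are the 250 bases before the RefSeq start, read from the gene's strand in GRCm38.p6: chr3:90668821-90669070, plus strand, for S100a8; chr3:90695722-90695971, minus strand, for S100a9; chr2:32387740-32387989, minus strand, for Lcn2; and chr9:110419558-110419807, plus strand, for Ngp. Capitals mark matches, on either strand, to TTGCNNAA, a form of the site of the C/EBP family, and to GAGGAAGT, a form of the site of PU.1. Both families drive granulocyte genes.
S100a8 promoter: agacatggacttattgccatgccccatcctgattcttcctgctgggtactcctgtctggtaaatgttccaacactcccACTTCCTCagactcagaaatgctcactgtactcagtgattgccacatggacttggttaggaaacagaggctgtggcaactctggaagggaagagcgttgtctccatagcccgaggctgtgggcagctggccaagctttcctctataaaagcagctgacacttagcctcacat
S100a9 promoter: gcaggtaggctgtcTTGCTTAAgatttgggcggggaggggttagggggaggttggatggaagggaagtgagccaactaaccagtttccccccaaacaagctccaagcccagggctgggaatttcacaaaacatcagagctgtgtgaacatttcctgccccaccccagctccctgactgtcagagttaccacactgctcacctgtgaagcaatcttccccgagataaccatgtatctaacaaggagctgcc
Lcn2 promoter: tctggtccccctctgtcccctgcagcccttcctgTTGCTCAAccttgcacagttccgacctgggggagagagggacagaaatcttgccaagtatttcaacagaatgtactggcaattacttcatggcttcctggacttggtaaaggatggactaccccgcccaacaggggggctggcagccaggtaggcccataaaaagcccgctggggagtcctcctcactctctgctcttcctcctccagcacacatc
Ngp promoter: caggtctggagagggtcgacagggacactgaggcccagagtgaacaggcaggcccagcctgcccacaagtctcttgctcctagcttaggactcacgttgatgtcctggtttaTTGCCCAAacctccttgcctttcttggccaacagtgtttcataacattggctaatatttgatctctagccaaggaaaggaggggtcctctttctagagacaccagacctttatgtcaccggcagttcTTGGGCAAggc
The C/EBP form was found upstream of 4 of the 10 members, S100a9, Lcn2, Ngp and Ltf, with 2 matches in Ngp, and in 9.56% of 32851 RefSeq promoters of the same length. The PU.1 form was found upstream of 3 members, S100a8, Mpo and Prtn3, and in 2.44% of those promoters. S100a9 and Lcn2, whose liver ratios had opposite signs, thus share the C/EBP form. A match describes the letters in this window and is not evidence of binding.

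The arrays and pools showed several features that touch every result. Between 58.6% and 94.7% of probes were well above background in a channel, and spleen array 1 stood apart at the high end in both channels. Its median signal over background was 1136 in the NP channel and 423 in the low-NP channel, so that Lcn2 with 1150 and 366 and Prtn3 with 1019 and 366 were near the array's median there. On a normalized log2 scale, on which only levels of the same probe are compared, the hepatocyte gene Alb stood at 17.86 in the NP liver pool and 18.05 in the low-NP liver pool, and at 14.0 in the NP spleen pool against 18.9 in the low-NP spleen pool. The B cell gene Cd79b stood at 9.63 in the NP liver pool against 14.2 in the low-NP liver pool, and at 16.6 and 16.4 in the NP and low-NP spleen pools. The low-NP pools thus went against their tissue labels in part: the pool labelled low-NP spleen held hepatocyte transcripts and the pool labelled low-NP liver held B cell transcripts. Because every diet ratio has a low-NP pool below it, these transcripts move with every result below. Their part in the members' ratios was not tested. All ratios are NP over low NP, opposite to the direction in which the deposited value table holds them.

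A gene counted as measured when, on each array of a tissue, 1 channel or more was flagged well above background, and as called when both arrays differed by at least 1.5-fold in the same direction. All 10 members were measured in liver and in spleen. The arrays of a tissue were taken as 1 dye-swapped pair, so each diet and tissue is 1 sample, no test was possible and no p-value is given. The value after ± is the distance of either array from the mean of the 2. Pools of a gene are said not to overlap when both levels of one pool lie above both levels of the other. The share of all genes with such pools was not counted, so this describes the order of the levels only. The numbers 1 and 2 that the labels give to pooled samples follow the dyes, and whether each array had a pool of its own is not settled.

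In liver, 1 of the 10 members was called lower, S100a9, against 3.65% of 16997 measured genes, and 1 was called higher, Lcn2, against 0.0706% of them. The members' median log2 ratio was -0.32, against 0.001 over all measured liver genes, and it was -0.09 on array 1 and -0.56 on array 2. In spleen the picture was unlike: all 10 members had a ratio above 0 on both arrays. Of 18416 measured spleen genes 45.2% had a mean ratio above 0, and the share above 0 on both arrays was not counted. No member was called higher there, where 0.0434% of genes were, and none was called lower, where 6.34% were. The spleen members' median log2 ratio was 0.51, against -0.02 over all measured spleen genes. The 2 tissues do not share arrays or pools.

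**Figure D1:**
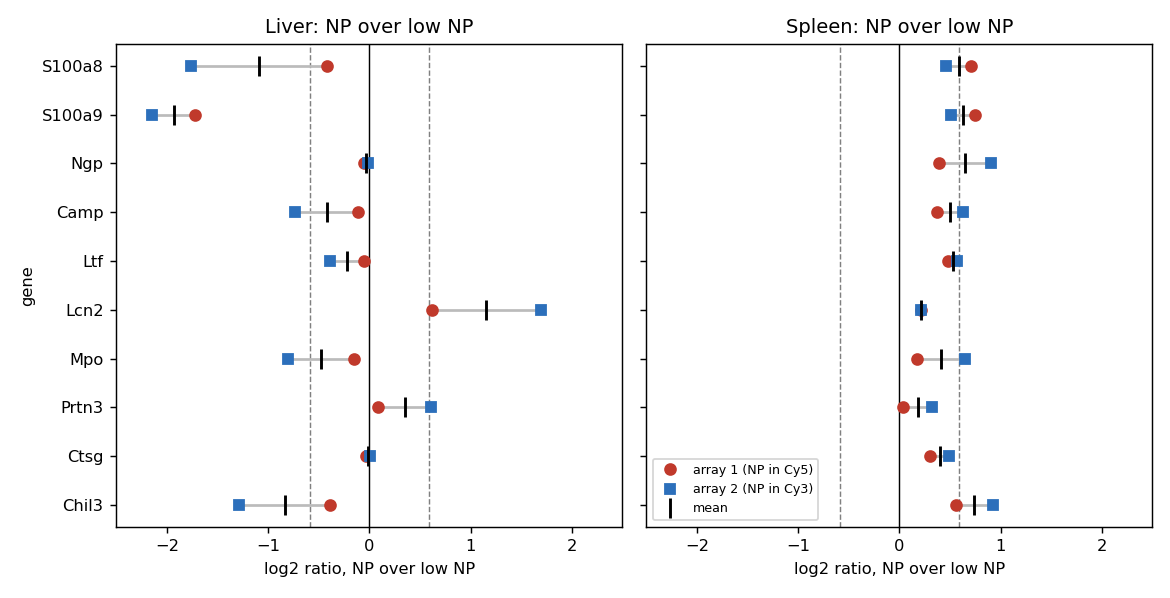
Log2 ratio of NP over low NP for each of the 10 genes (rows) in liver (left) and spleen (right). Circles are array 1, squares array 2, ticks the mean, and dashed lines mark 1.5-fold; in spleen every point lies above 0, while in liver S100a9 lies beyond the lower line and Lcn2 beyond the upper line on both arrays.

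Both calprotectin genes had lower levels in the NP pool of liver and higher levels in the NP pool of spleen, and S100a9 in liver was the case that was called. S100a9, whose protein forms calprotectin with S100a8, stood at log2 levels of 10.83 and 10.69 in the NP liver pool on arrays 1 and 2, against 12.55 and 12.83 in the low-NP liver pool. The pools did not overlap, and the log2 ratio was -1.73 and -2.14, a mean of -1.94 ± 0.21, or 3.82-fold lower in NP liver. In spleen S100a9 stood at 16.98 and 17.17 in the NP pool against 16.23 and 16.66 in the low-NP pool. The log2 ratio was 0.75 and 0.51, so the NP pool was the higher one on each array and array 2 fell short of 1.5-fold. At most 9 of 41174 probes were saturated in a channel, and whether S100a9 was among them is not given here.

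S100a8, the calcium-binding partner, had the same order of pools with a wider gap between arrays. It stood at 8.82 and 8.32 in the NP liver pool, against 9.24 and 10.08 in the low-NP liver pool, so the pools did not overlap. The log2 ratio was -0.42 on array 1 and -1.76 on array 2, with a mean of -1.09 ± 0.67, and array 1 kept it from being called. In spleen it stood at 14.10 and 13.96 in the NP pool and 13.39 and 13.50 in the low-NP pool, a mean log2 ratio of 0.58 ± 0.13 from 0.71 and 0.46. As for S100a9, the spleen pools did not overlap and array 2 had the smaller ratio.

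None of the 3 azurophil granule members was called in liver. Mpo, the peroxidase that makes hypochlorous acid, stood at 8.15 and 7.91 in the NP liver pool against 8.30 and 8.72 in the low-NP liver pool, log2 ratios of -0.15 and -0.81. Ctsg, the serine protease cathepsin G, stood at 8.30 and 8.38 in the NP liver pool and 8.34 and 8.37 in the low-NP liver pool. The Ctsg pools overlapped, with ratios of -0.04 and 0.01. Prtn3, the serine protease proteinase 3, leaned the other way, at 8.18 and 8.33 in the NP liver pool against 8.09 and 7.72 in the low-NP liver pool. Its log2 ratios were 0.09 and 0.61, and in the low-NP liver pool it was well above background on 1 of 2 arrays.

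In spleen, Mpo stood at 12.16 and 12.26 in the NP pool against 11.98 and 11.62 in the low-NP pool, a mean log2 ratio of 0.41 ± 0.24. Ctsg stood at 11.12 on each array in the NP pool and at 10.81 and 10.63 in the low-NP pool, a mean of 0.40 ± 0.09. Prtn3 stood at 7.98 and 8.23 in the NP pool and 7.94 and 7.90 in the low-NP pool, with ratios of 0.03 and 0.32. Mpo and Ctsg thus had higher NP levels on each array, with similar means, while the Prtn3 pools were nearly level on array 1.

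Among specific granule genes, Lcn2 was the exception in liver. Lcn2 encodes lipocalin 2, which binds bacterial siderophores and so withholds iron. It stood at 9.60 and 9.76 in the NP liver pool against 8.99 and 8.06 in the low-NP liver pool. The pools did not overlap, the log2 ratio was 0.61 and 1.69, and the mean of 1.15 ± 0.54 is 2.22-fold. In spleen it stood at 8.18 and 8.97 in the NP pool against 7.96 and 8.76 in the low-NP pool. Within each spleen array the ratio was small, 0.22 and 0.21, and the level differed more between arrays than between diets.

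Ltf, Camp and Ngp were dim in liver. None of the probes used was well above background in the NP liver pool on either array, while all were in the low-NP liver pool on both. Ltf, the iron-binding lactoferrin, stood at 7.75 and 7.74 in the NP liver pool against 7.80 and 8.12 in the low-NP liver pool. Its log2 ratios were -0.05 and -0.39, a mean 1.16-fold lower in NP liver. Camp, the cathelicidin precursor, stood at 7.99 and 7.80 in the NP liver pool against 8.10 and 8.53 in the low-NP liver pool. Its log2 ratios were -0.12 and -0.73, a mean 1.34-fold lower in NP liver. Ngp, neutrophilic granule protein, stood at 7.76 and 7.73 in the NP liver pool against 7.82 and 7.75 in the low-NP liver pool. Its log2 ratios were -0.06 and -0.02, a mean 1.03-fold lower in NP liver. With median centring in place of loess the Ngp ratio in liver was 0.03, so its direction is not held. As the NP liver signals were not well above background, these folds are not measured sizes. They set the low-NP mean against the probe's own level in the NP pool, which was above the dimmest signal that passed the background flag. The Ngp pools overlapped and those of Ltf and Camp did not.

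The same genes were bright in spleen, and their NP levels lay above the low-NP levels. Ngp stood at 11.20 and 11.16 in the NP spleen pool against 10.82 and 10.26 in the low-NP spleen pool, a mean log2 ratio of 0.65 ± 0.26. Camp stood at 12.71 and 12.93 in the NP spleen pool against 12.34 and 12.30 in the low-NP spleen pool, with ratios of 0.38 and 0.63. Ltf stood at 11.54 and 11.70 in the NP spleen pool against 11.06 and 11.12 in the low-NP spleen pool, with ratios of 0.49 and 0.57. No pool of these genes overlapped with its counterpart in spleen. The second, dimmer Ltf probe had a mean log2 ratio of -0.16 ± 0.11 in liver and 0.55 ± 0.04 in spleen, close to the brighter probe's -0.22 ± 0.17 and 0.53 ± 0.04.

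Chil3 encodes Ym1, a chitinase-like protein of mouse neutrophils and of alternatively activated macrophages. It stood at 8.92 and 8.69 in the NP liver pool against 9.30 and 9.97 in the low-NP liver pool, with log2 ratios of -0.39 and -1.29. In spleen it stood at 14.26 and 14.64 in the NP pool against 13.70 and 13.72 in the low-NP pool. Its spleen ratios of 0.55 and 0.93 gave the highest spleen mean of the 10 genes, 0.74 ± 0.19, and array 1 fell short of 1.5-fold. Chil4 had spleen ratios of 0.46 and 0.71. Among 5 genes listed for alternatively activated macrophages, Chil4 included, none was called in liver and 1, Arg1, was called lower in spleen, with a median of -0.24 in liver and 0.01 in spleen. Arg1 is also a urea cycle gene of hepatocytes and stood at 15.61 in NP liver, against 8.66 in NP spleen and 13.66 in low-NP spleen.

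**Figure D2:**
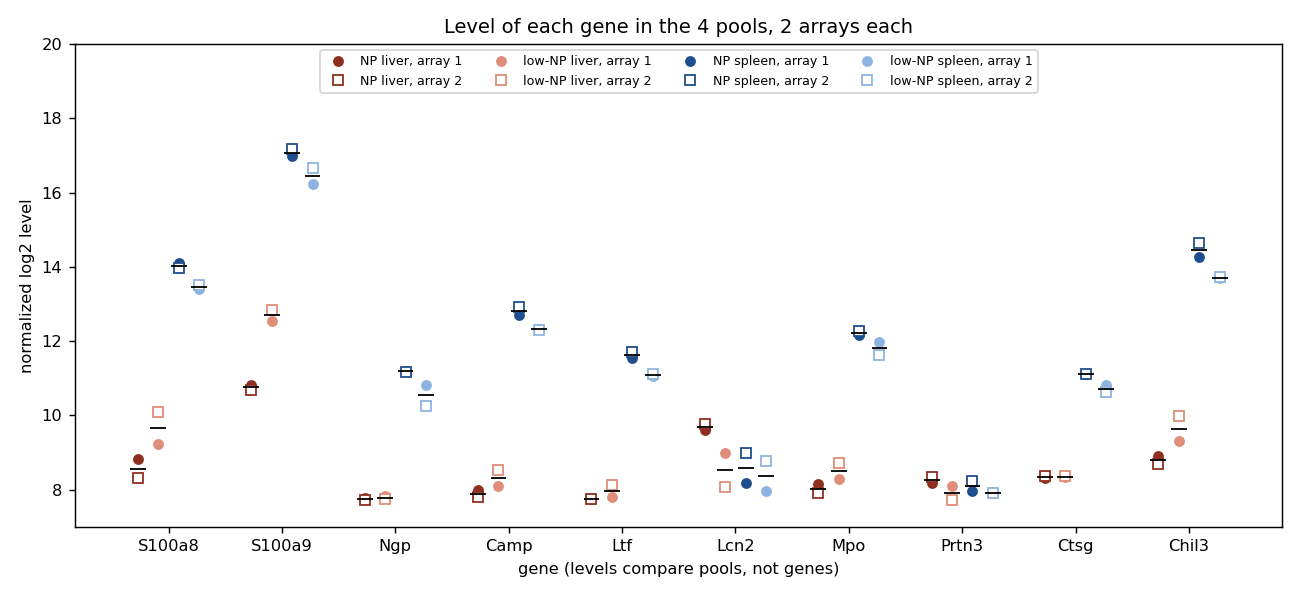
Normalized log2 level (vertical axis) of each gene's probe in the NP liver, low-NP liver, NP spleen and low-NP spleen pools, from left to right, with filled circles for array 1, open squares for array 2 and a bar for the mean. Every NP spleen point of a gene lies above the low-NP spleen point of the same array, and 8 genes lie far higher in spleen than in liver while Lcn2 and Prtn3 do not.

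The liver calls depended on the processing of the signals. With the scanner software's own background-subtracted and dye-normalized signals, centred on the median, 7 members were called lower in liver, all but Lcn2, Prtn3 and Ctsg, and 2 were called higher, Lcn2 and Prtn3. Over all 16997 measured liver genes, 1794 were called lower and 123 higher with these signals. The median log2 ratio of the liver members was then -1.75, with Camp at -3.43 and Ngp at -2.18. Lcn2 was at 2.80 in place of 1.15 and Prtn3 at 2.22 in place of 0.35. The offset of 50 used here pulls the ratios of dim probes towards 0. Without array 2, the members called in liver were S100a9 and Lcn2 as before, and without array 1 they were 5 lower and 2 higher. Over the 16997 genes, 700 were called lower and 344 higher without array 2, and 1912 lower and 76 higher without array 1.

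Where the members are expressed could be read from the NP pools, in which Alb in spleen and Cd79b in liver were lower than in the low-NP pools. The NP spleen level was 79.9-fold the NP liver level for S100a9, 50.2-fold for Chil3, 44.1-fold for S100a8, 18.2-fold for Mpo and 6.88-fold for Ctsg. For Camp, Ltf and Ngp it was at least 30.4-fold, 14.7-fold and 10.8-fold on the mean of the arrays, since their NP liver signal gives only a bound. Lcn2 and Prtn3 were unlike the rest, at 0.466-fold and 0.901-fold in NP spleen over NP liver. The sizes depended on the scaling. With processed signals scaled to each channel's 75th percentile the log2 difference was 9.17 in place of 4.92 for Camp, 8.15 in place of 3.44 for Ngp, 7.14 in place of 3.87 for Ltf, 6.79 in place of 4.18 for Mpo and 4.38 in place of 2.78 for Ctsg, which put Camp above S100a9. It was 6.38 in place of 5.46 for S100a8, 6.19 in place of 5.65 for Chil3 and 5.82 in place of 6.32 for S100a9. Lcn2 was at -0.97 in place of -1.10, and Prtn3 turned, at 0.80 in place of -0.15. Tissue and array cannot be told apart in this comparison.

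For the 8 members whose NP spleen level was 4 times the NP liver level or more, the liver pools were set against NP spleen. This rule caps the share in NP liver and leaves out Lcn2 and Prtn3, so the NP liver shares are a description of the genes kept. Over all 10 members the median was 6.17% in the NP liver pool and 7.87% in the low-NP liver pool. The NP liver pool held a median of 4.41% of the NP spleen level, from 1.25% to 14.5%, and the low-NP liver pool 6.40%, from 3.63% to 14.7%. S100a9 was at 1.25% in the NP liver pool against 4.80% in the low-NP liver pool. Of the lists cut by the same 4-fold rule, 7 B cell genes stood at a median of 19.5% in the low-NP liver pool, from 16.5% to 26.8%, 6 T cell genes at 22.5% and 6 monocyte genes at 26.3%. Another neutrophil list, 6 genes of cytosol and secretion, stood there at 21.4%, from 15.1% to 30.0%, so this list did not have the members' low share. Which cells its transcripts came from was not tested. The 4 red pulp macrophage genes at 17.5%, from 11.1%, and the 3 megakaryocyte and platelet genes at 14.6%, from 12.5%, overlapped the members' range. Each of the 8 members lay below the lowest of the 7 B cell genes kept there. The rule also favours a high NP spleen level, by which both shares are divided, so this order describes the genes kept only. Left out by the rule were Lcn2 at 97.8%, Prtn3 at 87.5% and the B cell gene Cd79a at 41.6% in the low-NP liver pool. In the NP liver pool the B cell genes were at a median of 3.39% and the T cell genes at 5.08%. The 5 erythroid genes kept by this rule had a median of 11.2% in the NP liver pool and 13.7% in the low-NP liver pool, where they ran from 5.61% to 28.4%. These shares include the signal that a dim probe has without transcript, and with the scanner's processed signals, an alternative added after the values were seen, the members' medians were 1.04% in the NP liver pool and 3.38% in the low-NP liver pool. The B cell genes were then at 1.38% and 25.3%, and the erythroid genes at 0.673% and 3.21%.

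**Figure D3:**
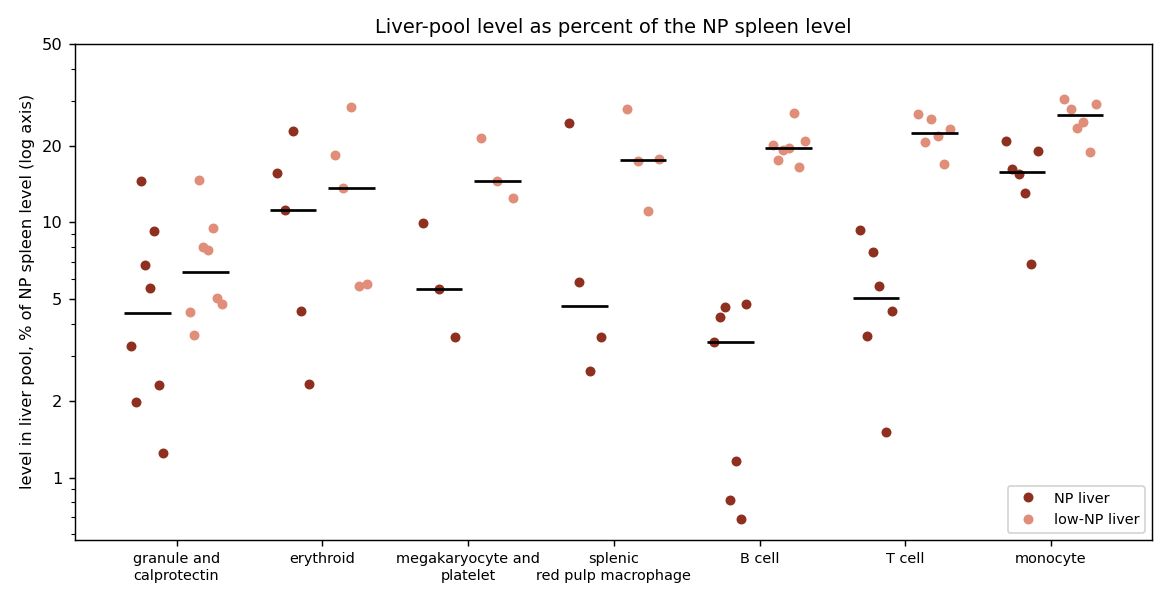
Level in the NP liver pool (dark, left) and the low-NP liver pool (light, right) as percent of the NP spleen level, on a log axis, for genes whose NP spleen level is 4 times the NP liver level or more; points are genes and bars are medians. In the low-NP liver pool the granule and calprotectin genes kept by this rule lie between 3.63% and 14.7%, below the B cell genes kept, at 16.5% to 26.8%. Lcn2 and Prtn3 are left out.

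Lists of other cells moved in liver beside S100a9. Of 8 B cell genes 7 were called lower, with a median log2 ratio of -2.36, and their summed linear level was 9196 and 6235 in the NP liver pool on arrays 1 and 2 against 102454 and 114756 in the low-NP liver pool. Of 8 T cell genes 6 were called lower, with a median of -1.88 and sums of 3867 and 2407 in the NP liver pool against 11695 and 17045 in the low-NP liver pool. Of 9 monocyte genes 3 were called lower, with a median of -0.58 and sums of 24857 and 23960 in the NP liver pool against 41963 and 41073 in the low-NP liver pool. All 10 exocrine pancreas genes were called lower, with a median of -1.11 and sums of 170320 and 148853 in the NP liver pool against 356273 and 337739 in the low-NP liver pool, so pancreatic transcripts also moved with the liver ratios. Of 6 red pulp macrophage genes 3 were called lower, with a median of -0.94, and of 6 megakaryocyte and platelet genes 2, with a median of -0.65. All B cell, T cell and monocyte genes on the array were measured in liver. The part of these cells and transcripts in the S100a9 ratio was not tested.

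Other neutrophil genes in liver were lower in NP where they were called. Of 4 measured azurophil granule genes besides the members, 2 were called lower: Lyz2, lysozyme, at -2.07 ± 0.46, and Srgn, the proteoglycan serglycin, at -1.55 ± 0.40. Of 5 measured specific granule genes 1 was called, the NADPH oxidase subunit gene Cyba at -1.28 ± 0.22. Of 8 measured genes of gelatinase granules and secretory vesicles 2 were called lower, Adam8 at -1.73 ± 0.68 and Cfp, properdin, at -0.83 ± 0.12. Of 9 measured genes of neutrophil cytosol and secretion 2 were called lower, the protease inhibitor genes Slpi at -3.11 ± 0.31 and Serpinb1a at -1.47 ± 0.25. Of 10 measured receptor genes 1 was called lower, Itgb2, an integrin subunit, at -1.35 ± 0.38. Several of these genes, among them Lyz2, Srgn and Itgb2, are also made by macrophages or lymphocytes. Genes of these lists that were not called included Cst7 at -1.23, Retnlg at -0.86, Ifitm6 at -0.56, Cxcr2 at -0.30 and Csf3r at -0.14. None of these lists had a gene called higher in liver.

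In spleen few genes of the other neutrophil lists were called. No gene was called higher among the 7 measured azurophil, 9 specific, 9 gelatinase and secretory vesicle, 11 cytosol and 12 receptor genes. Their median log2 ratios lay between 0.10 and 0.18, with the cytosol genes at 0.18 and the receptor genes at 0.10, against 0.51 for the 10 members. Mean ratios above 0 were found for 6 azurophil, 7 specific, 7 gelatinase and secretory vesicle, 9 cytosol and 10 receptor genes. Genes of these lists with higher spleen means were Retnlg at 0.41 and Cd177 at 0.40, while Elane, neutrophil elastase, was at 0.12 and Cxcr2 at 0.19. Genes lower on both arrays without a call included Ceacam1 at -0.67 and Alpl at -0.31. In these lists 2 genes were called lower, Hp at -3.63 ± 0.15 and Wfdc21 at -3.54 ± 0.41. Hp, haptoglobin, is also a main product of hepatocytes, and both stood higher in NP liver than in NP spleen, at 17.57 against 13.15 for Hp and at 15.88 against 10.55 for Wfdc21.

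Erythroid genes moved with the members in spleen. All 10 erythroid genes had mean ratios above 0, with a median of 0.55, and 2 were called higher, Hemgn at 0.74 ± 0.05 and Ank1, the ankyrin of the red cell membrane, at 0.67 ± 0.03. Their summed linear level was 56656 and 67202 in the NP spleen pool against 45331 and 45079 in the low-NP spleen pool. The megakaryocyte and platelet genes, 6 of 6 above 0, had a median of 0.23, the monocyte genes 0.15, the B cell genes 0.21 and the T cell genes 0.06, with none called. Hepatocyte genes, 11 of 11 called lower at a median of -5.29, had sums of 65943 and 19168 in the NP spleen pool against 2125014 and 1515136 in the low-NP spleen pool. The 10 exocrine pancreas genes were all called lower in spleen, at a median of -2.11. The part of erythroid cells, and of hepatocyte or pancreatic RNA in the low-NP spleen pool, in the members' spleen ratios was not tested.

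**Figure D4:**
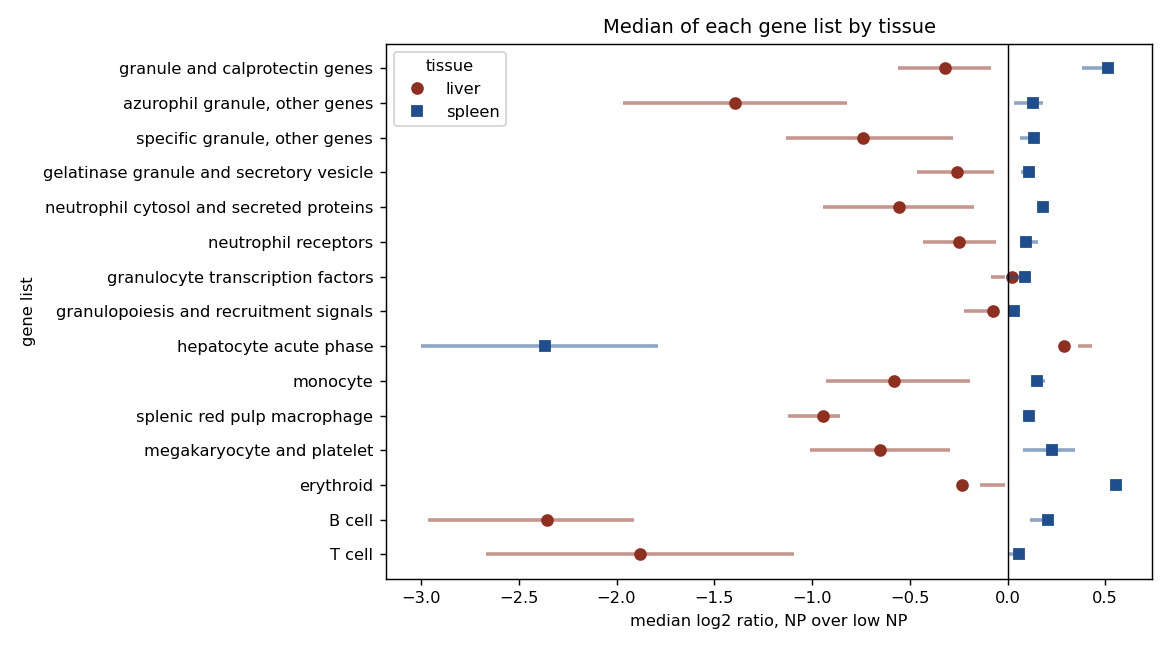
Median log2 ratio of NP over low NP (horizontal axis) for the granule and calprotectin genes and other gene lists (rows), with circles for liver and squares for spleen; a point is the median of the genes' 2-array means and a line joins the medians on each array, so a point may lie off its line. In spleen the granule and calprotectin genes at 0.51 and the erythroid genes at 0.55 lie furthest to the right, and in liver the B cell genes at -2.36 lie furthest to the left.

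The regulators and partners of the members that were called were called in spleen. Among 9 granulocyte transcription factor genes, none was called in liver, and in spleen Cebpa at -1.60 ± 0.37 and Cebpb at -0.84 ± 0.01 were called lower. Both are also hepatocyte factors and stood higher in NP liver than in NP spleen. Spi1, which encodes PU.1, had a mean ratio of -0.02 in liver and 0.37 in spleen. Of 13 genes for granulopoiesis and recruitment signals, 6 were measured in liver and 9 in spleen and none was called, with medians of -0.07 and 0.03. Csf3, which encodes the granulocyte growth factor, was not measured in either tissue. Of 10 partner genes measured in spleen, Serpina3n, whose family inhibits cathepsin G, at -1.17 ± 0.02 and Cp, ceruloplasmin, at -1.93 ± 0.01 were called lower. Neither was called in liver, nor was any other of the 8 partner genes measured there.

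Lcn2 was set beside the hepatocyte acute phase list, to which it can belong by its regulation. Of 19 acute phase genes measured in liver 4 were called higher and none lower, with a median log2 ratio of 0.29. They were Saa1 at 2.67 ± 0.22, Saa2 at 2.65 ± 0.38, Saa3 at 2.65 ± 0.22, all serum amyloid A genes, and Orm3, an orosomucoid gene, at 2.59 ± 0.47. Saa1 and Saa2 are near-identical copies, and whether their probes separate them was not tested. Lcn2 and these 4 genes made up 5 of the 12 genes called higher in liver. The list was chosen with earlier results of these data known, and a link between Lcn2 and its genes was not tested. In spleen 16 of 20 acute phase genes were called lower, at a median of -2.37, while Lcn2 was at 0.22.

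Over the 8 array channels, the genes with levels most like the mean of S100a8 and S100a9, by the root mean square (RMS) difference of mean-centred log2 levels among 16502 genes measured in both tissues, were Slc4a1 at 0.229, Car2 at 0.370, Cd24a at 0.395, Rhd at 0.444 and Eraf at 0.449. Of the other members Chil3 was the closest, at 0.271. Slc4a1, the anion exchanger of red cells, had a ratio of -1.30 ± 0.61 in liver, where it was called lower, and 0.65 ± 0.13 in spleen. For the mean of Ngp and Camp the nearest genes were C1qtnf12 at 0.352, Prkar2b at 0.357, Car2 at 0.371, Prg2 at 0.427 and Slc14a1 at 0.442, and the members Mpo and Ltf were closer at 0.129 and 0.173. For Lcn2 the nearest was Cyp2b9 at 0.370, and the nearest member was Prtn3 at 0.494. The step between tissues, wider than that between diets for most of these genes, weighs most in this measure.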

How the data were processed

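The deposited scanner files hold, per the file headers, the intensity of each spot in both dyes, the processed intensity and a log10 ratio, Cy5 over Cy3, made by Agilent Feature Extraction (9.5.3.1, per the submitters' processing notes). The deposited value table holds log10 ratios, and how they were made is not stated in the labels or files. By their correlation with the scanner ratios, between -0.992 and 0.998, its columns hold low NP over NP, on the scanner's scale and not centred, with medians of 0.03 and -0.07 in liver and -0.01 and -0.04 in spleen. Between 2.69% and 22.6% of its values differed from the scanner ratio beyond rounding, for a reason that is unknown.

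In limma 3.58.1 (R 4.3.3), mean signals were background-corrected with normexp (offset 50) and normalized by loess within each array, after which levels were scaled between arrays with Aquantile. The 1639 control spots and the 109 to 180 outlier spots per array were left out. Of 41174 probes 22951 were named by accession, 6659 by symbol and 3109 by synonym through RefSeq GRCm38.p6, and 8455 kept the file's name. All 10 members had a RefSeq promoter. With 2 arrays per tissue, the number of arrays limits the precision: 41 liver genes and 25 spleen genes passed 1.5-fold in opposite directions on the 2 arrays. The members, the 20 other lists and the tests were chosen with earlier results of these data known. Besides the members, list genes were named if called, otherwise the highest and lowest or, like Cst7, Ifitm6, Cxcr2, Csf3r, Elane, Retnlg, Cd177, Spi1 and Csf3, after their values were seen; for the likeness, the 5 nearest genes, some of which are not named here. A gene of the receptor list is not reported here. The alternatives are in the closing section.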

Additional observations from a re-analysis of the deposited data

Results flagged for a closer look

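In several genes and lists, both liver arrays moved in the direction opposite to both spleen arrays. The difference between tissues was not tested, and the values below are the liver mean log2 ratio of NP over low NP minus the spleen one. Among the granule and calprotectin genes it was -2.56 for S100a9, -1.68 for S100a8, -1.58 for Chil3, -0.92 for Camp, -0.89 for Mpo, -0.75 for Ltf and -0.68 for Ngp. Of these, Ltf, Camp and Ngp were not well above background in NP liver. The medians differed by -0.84 for the 10 members, by -0.79 for the erythroid list and by -0.73 for the monocyte list. They differed by -2.57 for the B cell list and by 2.66 for the acute phase list. Only these lists were examined for opposite medians. The T cell medians, -1.09 and -2.67 in liver against 0.05 and 0.01 in spleen, were opposite too. So were those of the red pulp macrophage, megakaryocyte and platelet, azurophil, specific, gelatinase, cytosol and receptor lists. The list for eosinophils, basophils and mast cells and that for granulopoiesis and recruitment signals had opposite medians as well. The partner list was opposite the other way round, above 0 in liver and below 0 in spleen. The pattern was thus not particular to the members, and its share over all genes was not counted.

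Other neutrophil genes with opposite directions were Adam8 at -1.96, Serpinb1a at -1.65, Itgb2 at -1.47, Cyba at -1.39 and Cfp at -1.004. Chil4 differed by -0.83 and the monocyte gene F13a1 by -1.14. Among genes with levels like those of the members, Cd24a differed by -2.40, Slc4a1 by -1.95, Eraf by -1.49, Slc14a1 by -1.45, Car2 by -1.34, Prkar2b by -1.29, Rhd by -0.99 and C1qtnf12 by -0.89, and the erythroid gene Ank1 by -0.91. The B cell gene Cd79b, used to check the labels, differed by -4.79. Saa2 at 5.43, Saa1 at 5.13 and Saa3 at 4.04 were called higher in NP liver and lower in NP spleen. Cp differed by 1.95 and Serpina3n by 1.51, both called lower in spleen and not called in liver, where their ratios were 0.03 and 0.34.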

How the results depend on the processing

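In spleen, all 10 members kept a mean ratio above 0 under every alternative run, and in liver S100a9 stayed lower and Lcn2 higher than in low NP under each, though Lcn2 was not called at 2-fold. Other liver results moved. Without background correction 5 members were called lower and 2 higher in liver, with 1327 genes lower and 18 higher. With the scanner's processed signals 7 members were lower and 2 higher in liver, with a member median of -1.75, 1794 genes lower and 123 higher, and in spleen 2 members, Ltf and Chil3, and 30 genes were called higher. Median centring gave 324 liver genes lower, 3 spleen genes higher and a spleen member median of 0.29, moved the median of all spleen genes to -0.15, and turned Ngp in liver to 0.03. The 6 members well above background in both channels had a liver median of -0.66. At 2-fold, 0 members were called higher in liver, with 6 genes higher and 296 lower, and in spleen 1 gene was higher and 771 lower. With 1 array left out, liver members called ranged from 1 to 2 higher and 1 to 5 lower, liver genes from 76 to 344 higher and 700 to 1912 lower, spleen members from 2 to 4 higher, spleen genes from 49 to 131 higher, the spleen member median from 0.38 to 0.54 and the liver one from -0.56 to -0.09. The share of the NP spleen level in low-NP liver had a member median of 3.38% with processed signals, against 6.40%, and the level of 9 of 10 members in NP spleen over NP liver moved with processed signals by more than its arrays' spread. The causes were not tested. No paired analysis was possible because no result comes from a test; each ratio is already taken within an array that holds both diets. All 4 arrays lie on 1 slide, so no slide block could be fitted. Signal over background limits Ltf, Camp, Ngp and Prtn3 in liver.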
